A study of Homo sapiens with 6 samples.

Results

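The nuclear genes of the mitochondrial ribosome were examined in 293T cells given a GFP-812 plasmid and in 293T cells given a GFP plasmid. The genes were taken by name: every row of the table whose symbol is MRPL or MRPS with a number and at most 1 letter, plus DAP3 and AURKAIP1. This gave 80 genes out of 61806 rows, of which 51 encode proteins of the large subunit, 28 encode proteins of the small subunit and 1, MRPS36, is known in current work as an adaptor of the oxoglutarate dehydrogenase complex. Pseudogenes were not taken.

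The tested cells carried a plasmid labelled GFP-812 (3 libraries) and the control cells a plasmid labelled GFP (3 libraries), both delivered with Lipo2000 to 293T, an established human embryonic kidney line. Both groups therefore share the transfection and a GFP plasmid, and the labels give neither a time after transfection nor the promoter on the plasmid. Poly(A) RNA was sequenced, and the series title concerns truncated mutant NEK1 and the making of ribosomal RNA. The labels do not state that the replicates were grown as separate cultures, so p-values measure the spread among these libraries, which may be technical.

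Mitochondria keep a ribosome of their own. It is built from RNAs encoded in the mitochondrial genome and from proteins that are encoded in the nucleus, made in the cytosol and imported, and it makes the few mitochondrially encoded proteins, all of them parts of the respiratory chain and ATP synthase. Some of its proteins have counterparts in bacterial ribosomes and others occur only in mitochondrial ribosomes. Inherited defects in several of these genes, MRPS16, MRPS22, MRPL3 and MRPL44 among them, are known causes of combined respiratory chain deficiency.

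Library totals were 14255148 to 17613814 counts. The plasmid's mark was clear: NEK1 stood at 562.73, 518.33 and 493.72 FPKM in GFP-812 libraries and at 3.82, 3.99 and 3.91 FPKM in GFP libraries. FPKM is a read count scaled to the length of the gene's exons and to the library's total. Among markers of kidney epithelium and of this line, VIM had 118.41, 122.24 and 119.12 FPKM in GFP-812 libraries and 115.24, 115.31 and 126.63 FPKM in GFP libraries. KRT18 lay between 14.53 and 16.44 FPKM in all 6 libraries, while EPCAM and CDH1 were near or below 1 FPKM. KRT8, a keratin of simple epithelia, had 10.37, 10.82 and 10.19 FPKM in GFP-812 libraries and 8.95, 9.57 and 10.06 FPKM in GFP libraries, without overlap (edgeR adjusted p = 0.152). PAX2, a transcription factor of the kidney, had 0.56, 0.7 and 0.6 FPKM in GFP-812 libraries and 0.45, 0.34 and 0.4 FPKM in GFP libraries, again without overlap (log2 fold change 0.66, edgeR adjusted p = 0.0959). KRT19, another keratin, had 3, 6 and 4 reads in GFP-812 libraries and 10, 10 and 7 reads in GFP libraries, too few to be tested. The part of these markers in the results was not tested. Of 12 markers of other cell types none averaged over 1.593 FPKM, and PTPRC, the marker of blood cells, had at most 1 read in any library. Of those 12 markers 6 were tested, and ACTA2, a smooth muscle actin, was the 1 called higher (edgeR adjusted p = 0.0423). Among all genes tested 1.18% were called higher. ACTA2 had 0.45, 0.34 and 0.36 FPKM in GFP-812 libraries and 0.1, 0.1 and 0.17 FPKM in GFP libraries. These values rested on 19, 16 and 19 reads in GFP-812 libraries and 5, 5 and 8 reads in GFP libraries. The call was lost in 7 of 15 alternative fits, DESeq2 among them, and the adjusted p ran from 0.0354 to 0.208.

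No gene of the mitochondrial ribosome passed the test between GFP-812 and GFP cells. By the quasi-likelihood test of edgeR, run on raw counts with p-values adjusted by Benjamini-Hochberg over 16834 genes and a threshold of 0.05, 0 of the 79 genes tested rose and 0 fell, where 3.84% of all genes tested were called, 1.18% of them higher and 2.67% lower. MRPL53 had too few reads to be tested. At an unadjusted p under 0.05 there were 9 of the 79 genes (11.4%), 6 higher and 3 lower, against 16.1% of all genes. DESeq2 gave an adjusted p to 62 of the 79 and called 0 of them, where it called 7.1% of the genes it gave one; at an unadjusted p under 0.05 it had 5 of the 79, and 12.2% of all genes. Limma on log2(FPKM + 1) called 0 of the 79, but it called only 3 of 12984 genes in all (0.0231%), so its count says little. At an unadjusted p under 0.05 limma had 7 of the 79, and 16% of all genes.

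The intervals bound the difference among these 6 libraries, for each gene alone and without adjustment for the number of genes. Whether they cover the spread between separate cultures is not known, as the labels do not state separate cultures. The median half-width of the 95% interval of the log2 fold change was 0.13, and the intervals of 69 of the 79 genes lay entirely within 0.32 of 0 on the log2 scale. With all 6 libraries, all 79 fitted values lay within that bound themselves. With 1 library left out, the log2 fold changes of MRPL17, MRPL38 and MRPL23 reached 0.37, 0.41 and -0.54, outside that bound. The 10 genes whose intervals reached beyond it were MRPL17, MRPL23, MRPL36, MRPL38, MRPL4, MRPL52, MRPL54, MRPL57, MRPS12 and MRPS24. The widest interval was that of MRPS24, from -0.28 to 0.57 on the log2 scale, and the intervals of 78 genes stayed within 1.5-fold, MRPL38 being the exception at up to 0.61.

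**Figure D1:**
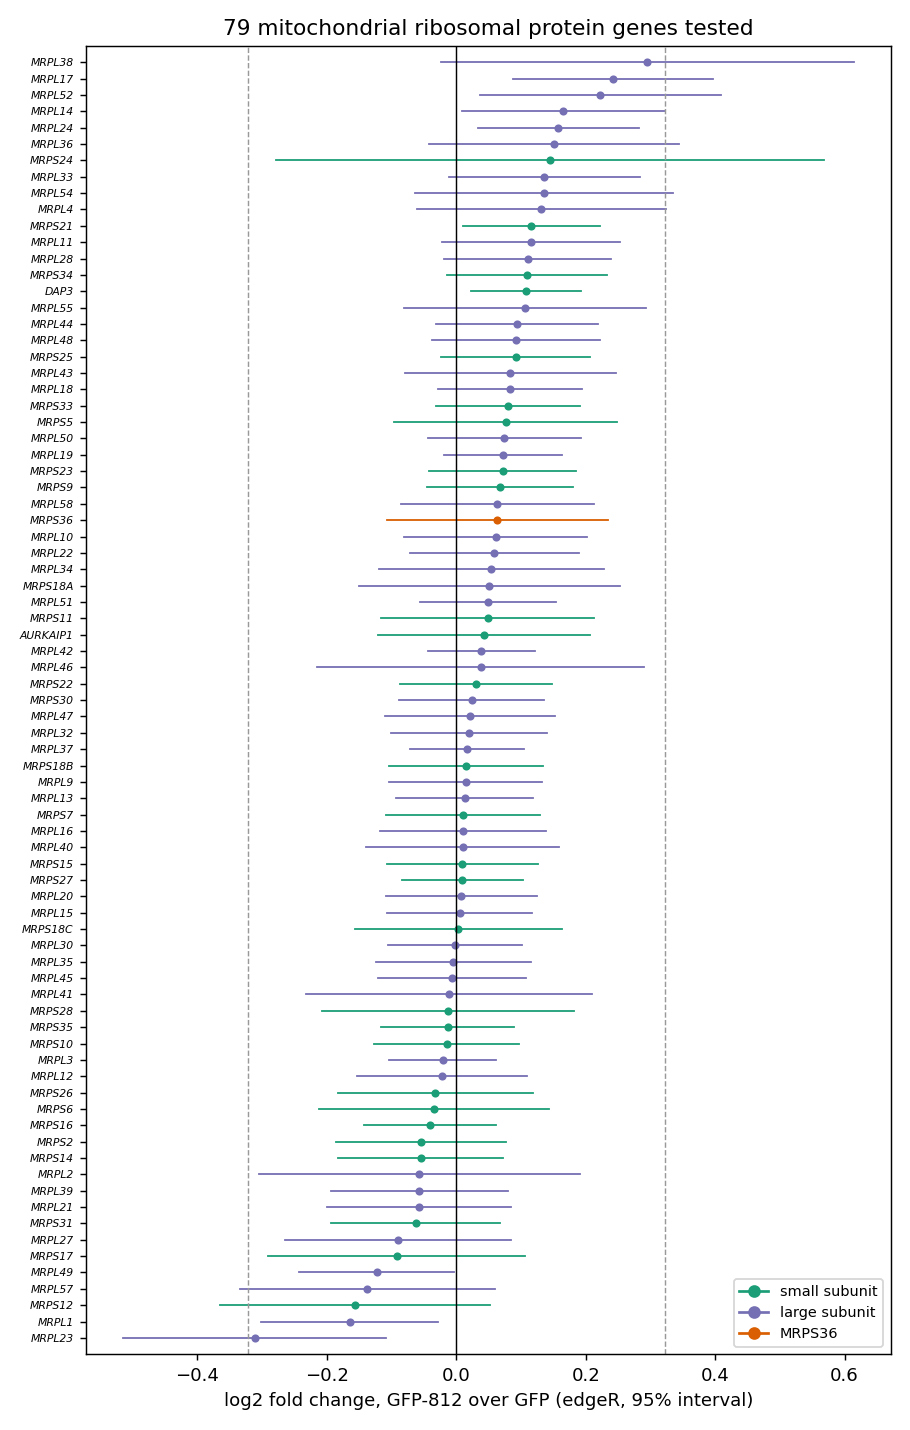
Fitted log2 fold change of GFP-812 over GFP (points) with its 95% interval (lines) for each of the 79 genes tested, coloured by subunit; the dashed lines mark 0.32 on either side of 0. The points run from -0.31 for MRPL23 to 0.30 for MRPL38, and the intervals of 69 genes stay between the dashed lines.

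The messenger RNAs of the class were abundant and differed among themselves far more than between the groups. Mean levels over the 6 libraries ran from 0.447 to 84.04 FPKM with a median of 18.55 FPKM, and 75 of the 80 genes lay above the median of all genes tested, 3.422 FPKM. MRPL37, MRPL3 and MRPL51, all of the large subunit, were the highest. MRPL37, a protein found only in mitochondrial ribosomes, had 86, 85.06 and 81.43 FPKM in GFP-812 libraries and 87.43, 78.54 and 85.76 FPKM in GFP libraries. MRPL3, the counterpart of bacterial L3, had 80.9, 84.27 and 81.76 FPKM in GFP-812 libraries and 86.76, 82.41 and 83.61 FPKM in GFP libraries. The groups overlapped for both genes, and MRPL37 and MRPL3 did not differ from each other beyond the spread of their libraries.

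At the other end, MRPL53, MRPS24, MRPL46, MRPS5 and MRPL38 averaged 0.447, 1.57, 1.72, 1.77 and 2.06 FPKM. Each of these 5 genes shares exonic bases with another gene on the same strand in GENCODE release 29, an annotation of the same genome assembly that is not the one behind the table: 45.2% of the exonic bases of MRPL53 (shared with CCDC142), 37.5% of MRPL38, 23.2% of MRPS24 (shared with the readthrough gene URGCP-MRPS24), 11.3% of MRPL46 and 8.2% of MRPS5 (shared with ZNF514). Over the class, 16 genes had such a same-strand overlap and a median of 12.66 FPKM, and the 64 without one had a median of 19.82 FPKM. How the counting treated reads in shared exons is not given in the sources used here, so the levels of these genes are uncertain, and the part of the overlap in their low levels was not tested. MRPL12, with 68.2% of its exonic bases shared, still averaged 51.3 FPKM. The level also rests on the deposited exonic size. MRPS5 averaged 388 reads over 13738 bases, where GENCODE release 29 has 6719 exonic bases. MRPL36, with a mean of 334 reads over 1395 bases, averaged 15.0 FPKM. A low FPKM is thus not always a low read count, and the part of exonic size in these levels was not tested.

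**Figure D2:**
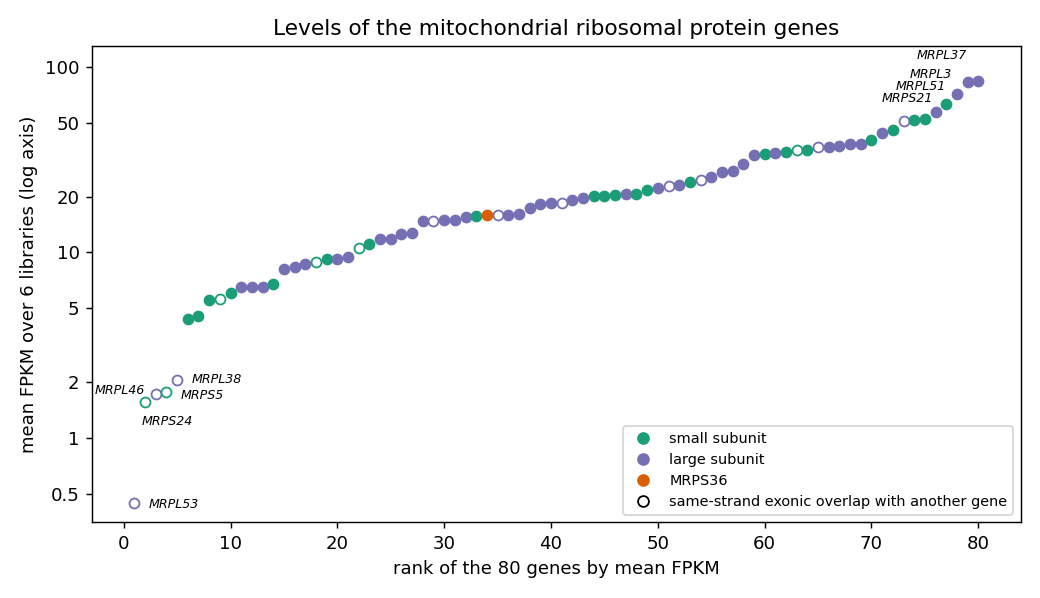
Mean FPKM over the 6 libraries (log axis) of the 80 genes in order of level, coloured by subunit; open circles are genes with a same-strand exonic overlap with another gene in GENCODE release 29. The 5 genes under 2.1 FPKM are all open circles, and MRPL37 and MRPL3 stand highest at 84.0 and 83.3 FPKM.

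The 28 small-subunit genes had a median level of 20.1 FPKM and a median log2 fold change of 0.010, with 17 fitted values above 0, 11 below and none called. Among the 16 with bacterial counterparts the median log2 fold change was -0.0048. MRPS21, the highest of them, had 67.48, 66.42 and 62.49 FPKM in GFP-812 libraries and 61.24, 57.39 and 64.05 FPKM in GFP libraries; the groups overlapped (log2 fold change 0.12, edgeR adjusted p = 0.248). MRPS12, the counterpart of the bacterial protein that guards decoding accuracy, had 9.24, 8.51 and 8.35 FPKM in GFP-812 libraries and 10.52, 9.21 and 9.55 FPKM in GFP libraries. Its log2 fold change, -0.16 (SE 0.10, edgeR adjusted p = 0.478), was the lowest of the small subunit. MRPS24, the counterpart of bacterial S3, was highest in the subunit at 0.14 but rested on under 2 FPKM in every library.

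Among the 12 small-subunit proteins that occur only in mitochondria the median log2 fold change was 0.037. DAP3, a GTP-binding protein first described as a mediator of cell death, had 41.94, 41.56 and 41.73 FPKM in GFP-812 libraries and 39.26, 38.36 and 39.63 FPKM in GFP libraries. Every GFP-812 library was above every GFP library, yet the difference was small, 1.08-fold (95% interval 1.02 to 1.14), and missed the threshold (edgeR adjusted p = 0.158). AURKAIP1, a small-subunit protein also known for binding Aurora A kinase, had 23.06, 19.94 and 20.06 FPKM in GFP-812 libraries and 20.23, 20.3 and 21.1 FPKM in GFP libraries, which overlapped. MRPS35 and MRPS34 were the most abundant of this set, at means of 52.3 and 52.0 FPKM, with log2 fold changes of -0.013 and 0.11. MRPS22, one of the disease genes, averaged 4.39 FPKM with a log2 fold change of 0.031.

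The large subunit held the largest fitted differences in both directions. Its 50 genes tested had a median level near that of the small subunit (18.5 FPKM over 51 genes) and a median log2 fold change of 0.038, with 36 fitted values above 0 and 14 below. The 30 with bacterial counterparts had a median of 0.020 and the 20 mitochondria-specific ones tested a median of 0.044. Both subunit medians were smaller than the SD between libraries of a group, 0.026 for the small and 0.046 for the large subunit on the log2 scale.

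On the upper side, MRPL17, the counterpart of bacterial L17, came closest to the threshold. It had 15.87, 17.5 and 16.69 FPKM in GFP-812 libraries and 12.54, 13.44 and 16.76 FPKM in GFP libraries. GFP replicate 3 lay among the GFP-812 libraries, and the other GFP libraries were lower. The fitted change was 1.18-fold (95% interval 1.06 to 1.32; edgeR adjusted p = 0.0601). MRPL14, the counterpart of bacterial L14, showed the same order within the GFP libraries, with GFP replicate 3 above every GFP-812 library. It had 41.56, 39.01 and 41.47 FPKM in GFP-812 libraries and 31.26, 36.76 and 41.77 FPKM in GFP libraries (1.12-fold, edgeR adjusted p = 0.27). MRPL24, the counterpart of L24, had 34.43, 35.51 and 38.65 FPKM in GFP-812 libraries and 31.06, 32.19 and 35.12 FPKM in GFP libraries, with GFP replicate 3 again the highest of its group (log2 fold change 0.16, edgeR adjusted p = 0.156).

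Without GFP replicate 3, edgeR called MRPL17, MRPL14 and MRPL24 higher (log2 fold changes 0.37, 0.27 and 0.21; adjusted p = 0.000462, 0.0259 and 0.0355), out of 1317 genes called in all. Without GFP replicate 1 the log2 fold changes of MRPL17 and MRPL14 were 0.16 and 0.067 (adjusted p = 0.408 and 0.801), and without GFP-812 replicate 3 that of MRPL24 was 0.11 (adjusted p = 0.55). Over all alternatives the adjusted p of MRPL17 ran from 0.000462 to 0.408, that of MRPL14 from 0.0259 to 0.801 and that of MRPL24 from 0.0355 to 0.55. MRPL14 and MRPL24 were called under that alternative alone, and MRPL17 also under 4 others (upper-quartile factors, a mean FPKM of 5 or more, protein-coding genes alone and the replicate block), at adjusted p-values of 0.0467, 0.0406, 0.0499 and 0.0223.

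MRPL52, a mitochondria-specific protein, was the member whose GFP-812 libraries agreed most closely, at 6.96, 6.96 and 6.94 FPKM, against 6.46, 5.96 and 5.62 FPKM in GFP libraries. The groups did not overlap (1.17-fold, 95% interval 1.03 to 1.33; edgeR adjusted p = 0.193). MRPL38, another mitochondria-specific protein, had the highest log2 fold change, 0.30 (SE 0.16, edgeR adjusted p = 0.356), on 1.83, 2.64 and 2.29 FPKM in GFP-812 libraries and 1.82, 1.82 and 1.94 FPKM in GFP libraries. Its value rested on 87 to 138 reads in GFP-812 libraries and 98 to 104 reads in GFP libraries.

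On the lower side, MRPL23, the counterpart of bacterial L23, which lies near the tunnel through which the new chain leaves the ribosome, had 7.76, 6.28 and 10.5 FPKM in GFP-812 libraries and 11.06, 9.07 and 10.78 FPKM in GFP libraries. GFP-812 replicate 3 lay within the GFP range and the other GFP-812 libraries below it. The fitted change was 0.81-fold (95% interval 0.70 to 0.93; edgeR adjusted p = 0.0705), and MRPL23 also had the largest relative spread of the 79 genes tested among GFP-812 libraries, a coefficient of variation of 26.2% where the median gene had 4.49%. Without GFP-812 replicate 3 it was called lower at a log2 fold change of -0.54 (adjusted p = 0.00122), and without GFP replicate 2 at -0.40 (0.0357). Without GFP-812 replicate 2, the lowest library, the log2 fold change was -0.15 (adjusted p = 0.591). It was also called with no filter on low counts, with exonic size smoothed out and with the replicate block (adjusted p = 0.0171, 0.0314 and 0.00562). Over all alternatives its adjusted p ran from 0.00122 to 0.591.

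MRPL1, the counterpart of bacterial L1, had 23.87, 23.95 and 23.75 FPKM in GFP-812 libraries and 26.94, 26.04 and 27.96 FPKM in GFP libraries. The groups did not overlap, at 0.89-fold (95% interval 0.81 to 0.98; edgeR adjusted p = 0.188). MRPL49, a mitochondria-specific protein, had 18.95, 18.61 and 17.38 FPKM in GFP-812 libraries and 20.45, 19.84 and 19.99 FPKM in GFP libraries, again without overlap (0.92-fold, edgeR adjusted p = 0.295). MRPL57, also mitochondria-specific, had 7.85, 7.54 and 8.44 FPKM in GFP-812 libraries and 9.71, 8.6 and 8.17 FPKM in GFP libraries, which overlapped (log2 fold change -0.14, edgeR adjusted p = 0.52). In all, 6 of the 79 genes (7.59%) had groups whose FPKM did not overlap, DAP3, MRPL33, MRPL48 and MRPL52 with GFP-812 above and MRPL1 and MRPL49 with GFP-812 below, where 20.1% of all genes tested had no overlap, 7.93% with GFP-812 above and 12.1% with GFP-812 below.

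**Figure D3:**
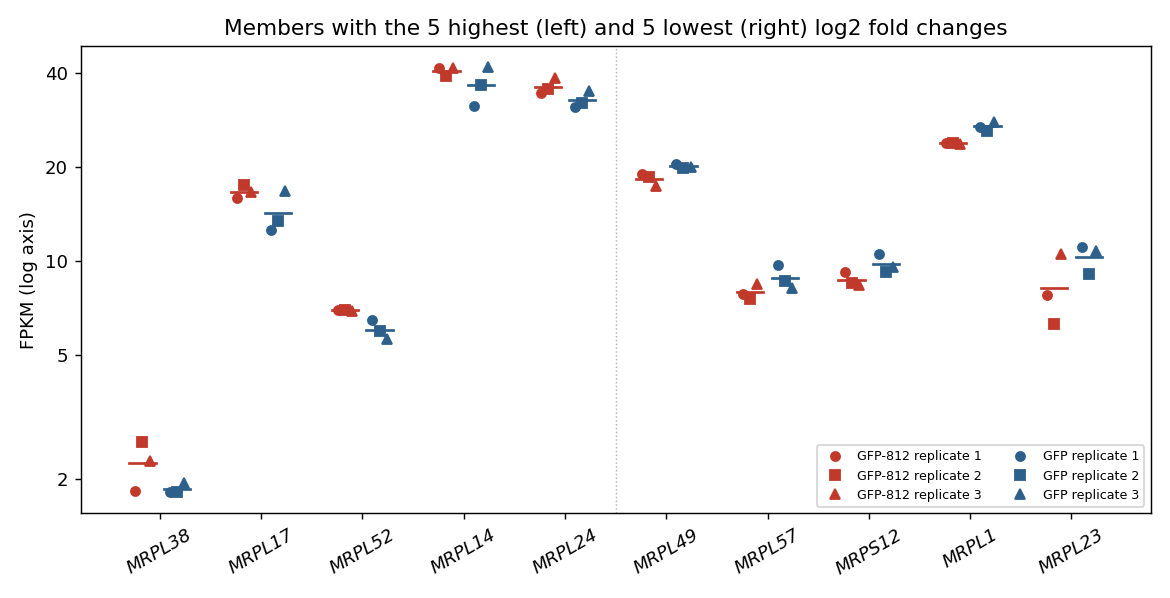
FPKM (log axis) in each library of the 5 genes with the highest and the 5 with the lowest fitted log2 fold changes, GFP-812 left of GFP for each gene; symbols mark the replicate number and lines the group means. GFP replicate 3 (blue triangle) lies within or above the GFP-812 values for MRPL17 and MRPL14, and GFP-812 replicate 3 (red triangle) lies within the GFP values for MRPL23.

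The 69 genes outside the 5 highest and 5 lowest had fitted log2 fold changes between -0.092 (MRPS17) and 0.15 (MRPL36). MRPL44, a disease gene that encodes a double-stranded RNA binding protein of the large subunit, had a log2 fold change of 0.094 at a mean of 33.4 FPKM, and MRPL58, a peptidyl-tRNA hydrolase built into the large subunit, 0.064 at 30.1 FPKM. MRPL12, which is also known to bind the mitochondrial RNA polymerase, stood at -0.022. MRPS36 had 16.6, 16.06 and 15.95 FPKM in GFP-812 libraries and 16.25, 14.91 and 15.74 FPKM in GFP libraries, with a log2 fold change of 0.064 (edgeR adjusted p = 0.775).

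Summed over the class, the genes took 0.4709%, 0.4682% and 0.4633% of all counts in GFP-812 libraries and 0.4658%, 0.4469% and 0.4719% in GFP libraries. The exact (Clopper-Pearson) 95% interval was 0.4674% to 0.4745% in GFP-812 replicate 1 and 0.4437% to 0.4502% in GFP replicate 2, and covers counting error only. GFP replicate 2 was the lowest and GFP replicate 3 the highest, so the GFP libraries enclosed those of GFP-812. The summed FPKM of large-subunit genes was 2.02, 2.00 and 1.99 times that of small-subunit genes in GFP-812 libraries and 2.02, 1.95 and 2.01 times in GFP libraries. The balance of the subunits thus differed by less than the spread among GFP libraries (means 2.00 ± 0.019 and 1.99 ± 0.035, SD, n = 3 each). Bulk RNA cannot tell fewer expressing cells from less RNA per cell.

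The centre of the class lay slightly above 0 and moved with single libraries and with gene length. The median log2 fold change was 0.024, beside 0.0069 over all genes tested, and 54 of 79 fitted values (68.4%) were above 0, beside 51.8% of all genes. The count above 0 was 61 with upper-quartile factors, 60 without GFP replicate 3, 40 without GFP replicate 2, 46 when libraries were scaled to total counts and 39 when a smooth trend on exonic size was removed from each library, where the median was -0.00031. The genes of the class were short, with a median exonic size of 2544 bases against 4862 for all genes tested, and log2 CPM, taken as the deviation from each gene's mean over the 6 libraries, had a slope on log2 exonic size of -0.0082, -0.0091 and -0.0093 in GFP-812 libraries and 0.013, 0.021 and -0.0073 in GFP libraries. CPM is a count scaled to the library's total over the genes tested, here adjusted by edgeR's TMM scaling factor. Relative to that mean, the slope of GFP replicate 3 had the sign of the GFP-812 libraries.

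Cytosolic ribosomal protein genes and nuclear complex I genes of the NDUF family gave other values in the same fit. Of 82 cytosolic ribosomal protein genes tested, 25 were called higher and 0 lower, with a median log2 fold change of 0.11. Of 37 NDUF genes 3 were called higher and 0 lower, with a median of 0.088. Among all genes tested 1.18% were called higher and 2.67% lower. The cytosolic and NDUF genes were also short, with median exonic sizes of 2941 and 2711 bases against 4862 for all genes tested. Their calls are those of the main fit, and how they held under the alternatives was not examined. Per library, the median deviation of log2 CPM from each gene's mean over the 6 libraries was 0.027, 0.026 and -0.0026 in GFP-812 libraries and 0.0019, -0.068 and 0.023 in GFP libraries for the mitochondrial ribosomal genes. For the cytosolic genes it was 0.053, 0.062 and 0.060 in GFP-812 libraries and -0.081, -0.14 and 0.047 in GFP libraries. GFP replicate 2 was lowest and GFP replicate 3 highest among GFP libraries in both classes. The difference between the classes was not tested.

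**Figure D4:**
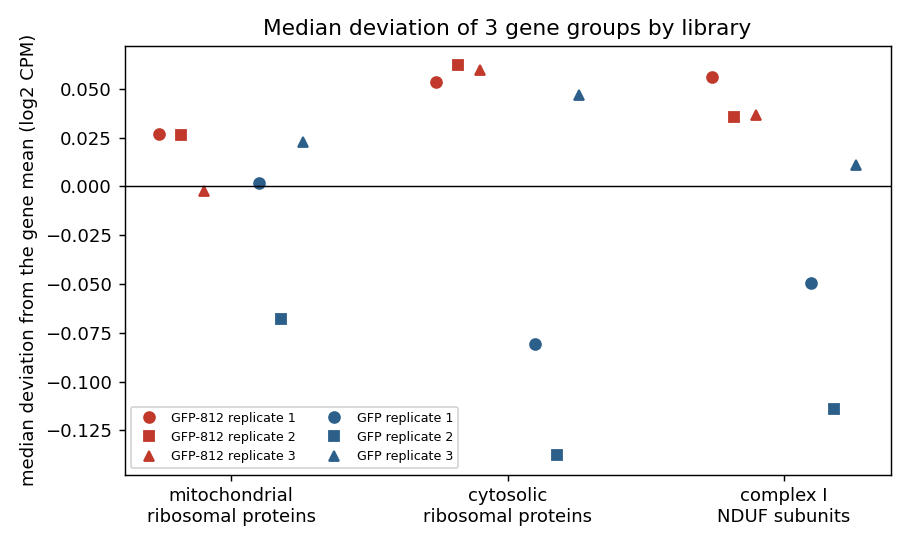
Median deviation of log2 CPM from each gene's mean over the 6 libraries, for mitochondrial ribosomal, cytosolic ribosomal and NDUF genes, 1 point per library, GFP-812 left of GFP. For the mitochondrial ribosomal genes GFP replicates 1 and 3, at 0.0019 and 0.023, lie within the range of the GFP-812 libraries; for the other 2 classes each GFP library lies below each GFP-812 library.

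The RNA partners of these proteins were measured in the same libraries. MT-RNR2, the RNA of the large subunit, had 2743.86, 2915.77 and 2883.15 FPKM in GFP-812 libraries and 2522.99, 2597.14 and 2807.98 FPKM in GFP libraries, with GFP replicate 3 between GFP-812 replicates 1 and 3. It was called higher (1.087-fold, edgeR adjusted p = 0.0272), but its adjusted p was 0.209 once the trend on exonic size was removed and 0.33 by limma on log2(FPKM + 1). The call also ended when GFP-812 replicate 2 (adjusted p = 0.254) or 3 (0.137) was left out, and when GFP replicate 1 (0.254) or 2 (0.0701) was. The log2 fold change was 0.12 with all libraries, 0.091 to 0.17 over the left-out libraries, 0.11 by limma and 0.075 with the size trend removed. MT-RNR1, the RNA of the small subunit, had 1234.32, 1254.71 and 1177.07 FPKM in GFP-812 libraries and 1221.73, 1101.26 and 1234.58 FPKM in GFP libraries, which overlapped (adjusted p = 0.484). Mitochondrial ribosomal RNA carries short tails, and how evenly the poly(A) selection captured it was not tested.

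No factor that assembles the ribosome passed edgeR's test. Of 31 assembly factors, 30 were tested and 0 were called, with 5, 3 and 4 at an unadjusted p under 0.05 by edgeR, DESeq2 and limma. EdgeR called 3.84% of all genes tested, so a count of 0 in a list this short says little. The shares of all genes at that p were 16.1%, 12.2% and 16%, and that of the assembly factors by edgeR was 16.7%. The median absolute log2 fold change of these factors was 0.089, beside 0.057 for the ribosomal proteins and 0.10 for all genes tested. METTL15, which methylates the small-subunit RNA, had the smallest p, with 4.07, 4.67 and 4.61 FPKM in GFP-812 libraries and 5.36, 5.07 and 5.27 FPKM in GFP libraries, without overlap (log2 fold change -0.22, edgeR adjusted p = 0.0773). DDX28, an RNA helicase of large-subunit assembly, followed at 7.39, 7.05 and 6.35 FPKM in GFP-812 libraries and 8.45, 7.78 and 9.19 FPKM in GFP libraries (log2 fold change -0.28, edgeR adjusted p = 0.112). MALSU1, a factor of late large-subunit assembly, went the other way, at 8.09, 7.76 and 7.92 FPKM in GFP-812 libraries and 6.64, 6.9 and 7.3 FPKM in GFP libraries (log2 fold change 0.20, edgeR adjusted p = 0.167).

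Of 17 translation factors of mitochondria 0 were called by edgeR, with 1 at an unadjusted p under 0.05 by edgeR and 0 by DESeq2 and limma. Here and for the lists that follow, the shares of all genes at that p were 16.1%, 12.2% and 16% by edgeR, DESeq2 and limma. The share of all genes that edgeR called was 3.84%, so counts of 0 in these short lists say little. TUFM, the elongation factor that brings transfer RNAs to the ribosome, had 80.05, 78.97 and 83.63 FPKM in GFP-812 libraries and 76.4, 78.65 and 84.85 FPKM in GFP libraries, which overlapped. SLIRP, which binds mitochondrial messenger RNAs, had the smallest p of that list (log2 fold change 0.15, edgeR adjusted p = 0.232). Of 16 genes of protein import and processing 0 were called (2, 2 and 1 at an unadjusted p under 0.05 by edgeR, DESeq2 and limma). LONP1, a protease of the matrix, had the smallest p, at 20.13, 20 and 20.88 FPKM in GFP-812 libraries and 18.48, 17.79 and 19.48 FPKM in GFP libraries (log2 fold change 0.14, edgeR adjusted p = 0.108; 0.0233 without GFP replicate 3). The 3 ribosome proteins under other symbols, PTCD3, CHCHD1 and GADD45GIP1, were not called, with log2 fold changes of -0.083, 0.16 and 0.19 and 0, 0 and 1 at an unadjusted p under 0.05 by edgeR, DESeq2 and limma.

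Of 8 factors known to regulate genes of mitochondria, PPRC1 fell and the others did not pass (4, 2 and 2 at an unadjusted p under 0.05 by edgeR, DESeq2 and limma, PPRC1 included). Among all genes, edgeR called 3.84% in either direction and 2.67% lower. The shares of all genes at an unadjusted p under 0.05 were 16.1%, 12.2% and 16% by edgeR, DESeq2 and limma. PPRC1, a coactivator related to PGC-1 alpha, had 9.45, 9.21 and 9.22 FPKM in GFP-812 libraries and 11.23, 10.99 and 10.98 FPKM in GFP libraries. Each group was tight and the groups did not overlap, at 0.85-fold (95% interval 0.78 to 0.92; edgeR adjusted p = 0.00804). It missed the threshold when GFP-812 replicate 2 (adjusted p = 0.0782), GFP-812 replicate 3 (0.0705) or GFP replicate 1 (0.0586) was left out, and by limma on log2(FPKM + 1) (0.0848), while the log2 fold change stayed between -0.26 and -0.22. GABPA and NRF1, transcription factors known to act on many of these promoters, had log2 fold changes of -0.017 and -0.026. Of 5 genes of mitochondrial transcription 0 were called (2, 0 and 1 at an unadjusted p under 0.05 by edgeR, DESeq2 and limma), with POLRMT, the RNA polymerase, at 0.17 and TFAM, which packages and transcribes mitochondrial DNA, at -0.092. Without GFP replicate 3, TFAM and YY1 were called lower and MYC higher.

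Promoter sequences were examined because NRF1, GABP and YY1 are known to act on many genes of mitochondria. RefSeq sequences on GRCh38.p14 were matched for 71 of the 80 genes, and the 250 bases before the RefSeq start were searched on both strands. In GENCODE release 29 some transcripts start further upstream, so parts of these windows can be transcribed. Both stretches printed below hold no annotated exon and run 5′ to 3′ on the gene's strand, with the motif in capitals. MRPL17 (chr11:6683402-6683501, minus strand), the member with the smallest p, holds the NRF1 palindrome, and MRPS34 (chr16:1773156-1773206, minus strand) holds 2 copies of the GABP core as read from the other strand.
MRPL17: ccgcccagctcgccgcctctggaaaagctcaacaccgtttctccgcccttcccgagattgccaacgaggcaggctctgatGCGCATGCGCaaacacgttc
MRPS34: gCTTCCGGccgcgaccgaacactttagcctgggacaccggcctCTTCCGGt

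CCGGAAG, the core that GABP binds, was found in 23 of the 71 members (32.4%) and in 11.8% of 15843 protein-coding promoters of the same length. These promoters were not limited to genes expressed in these cells, and the share among expressed genes was not examined for any motif. The NRF1 palindrome was found in MRPL17 alone among members (1.4%) and in 1.5% of all promoters; with 1 central base left free it was found in 8 members (11.3%) and 7.7% of all. The YY1 motif was found in 1 member, MRPL36 (1.4%), and in 0.3% of all. The SP1 core GGGCGG was found in 54.9% of members and 56.0% of all, and the E-box CACGTG in 8.5% and 7.8%. Members with CCGGAAG had a median log2 fold change of 0.040 and those without it 0.038, with median levels of 22.9 and 19.4 FPKM. A match describes the letters and not binding.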

How the data were processed

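Poly(A) RNA of 293T cells was measured in 3 libraries per group, grouped by sample title. The authors deposited 1 table with raw counts and FPKM per gene and library. Aligner HISAT2 2.2.1, counter HTSeq 0.6.1, trimmer cutadapt 1.9.1, quality tool FastQC 0.10.1 and build hg38 are named per the submitters' processing notes. For the annotation release and the strand setting: not given in the sources used here. Each count over exonic size and library total returned the deposited FPKM within 0.0051 for 100% of values.

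Counts were tested with edgeR 4.0.16 in R 4.3.3 (filterByExpr, TMM, group as the single term) over the whole table, with 2-sided p-values. Intervals are 95% from the quasi-likelihood fit. Alternatives used DESeq2 1.42.0, limma 3.58.1 on log2(FPKM + 1) at a mean FPKM of at least 1, other scalings and filters, a spline with 4 degrees of freedom on exonic size, a replicate block, and each library left out. The edgeR, DESeq2 and limma fits were tested on simulated counts with the same dispersion for every gene. Changes were placed only in genes with many reads, so genes with few reads were not covered. A minimum recovery was required of edgeR and DESeq2 at the larger changes and not of limma. Levels at 3 libraries per group limit precision, and library totals of 14255148 to 17613814 counts bound the low genes. Genes named with values are those with the 5 highest and 5 lowest log2 fold changes, the 3 highest and 3 lowest levels, DAP3, AURKAIP1, MRPS36, and from each list the genes called or with the smallest p; others were named after their values were seen. Members and lists were chosen with earlier results of these data known.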

Additional observations from a re-analysis of the deposited data

How the results depend on the processing

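Of 509 single-gene values under the alternatives 464 kept their side of the threshold and direction, 19 lost a call, 14 gained one and 12 changed sign. The number of risen genes was 1 with upper-quartile factors, when mean FPKM had to reach 5, on protein-coding genes alone and with the replicate block (MRPL17 each time), and ran from 0 to 3 when each library was left out. The number of fallen genes was 1 with no filter, with exonic size smoothed out and with the replicate block (MRPL23 each time), and ran from 0 to 1 when each library was left out. With a library left out, 209 to 1317 genes were called in all. The 3 risen genes came from the fit without GFP replicate 3, which called 1317 of 17259 genes. The other alternatives named here called 619 to 777 genes in all, out of 7015 to 35719 tested. The labels do not say whether equal replicate numbers pair the samples. Correlations of same-numbered deviations were 0.032, -0.010 and 0.0061, and those of unlike numbers ran from -0.032 to 0.026. With 3 libraries per group these values cannot exclude a weak pairing. The block, with 777 genes called against 647, rests on the number alone. With exonic size smoothed out the log2 fold changes of MRPL37, MRPL51, AURKAIP1 and MT-RNR1 were -0.0165, -0.0003098, -0.007009 and -0.003944. Leaving out libraries spanned -0.0334 to 0.0504 for MRPL37, -0.0122 to 0.0932 for MRPL51, -0.0311 to 0.0819 for AURKAIP1, -0.0400 to 0.0882 for MRPL46, -0.0412 to 0.00384 for MRPL3 and -0.0561 to 0.303 for MRPS24; none of these was called. The median log2 fold change ran from -0.00031 to 0.052 over the class, from -0.013 to 0.035 for the small and from 0.0038 to 0.062 for the large subunit, moves smaller than the SD between libraries of a group. The cause of these shifts was not tested. The median of all genes was 0.022 with upper-quartile factors and -0.0058 with total counts. Leaving out the NEK1 row, an alternative added after the data were examined, called 0 members. MRPL53 had too few reads for a test, so a change in it was not detectable at this depth.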

Other observations

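Many of these genes share a start region with another gene. Of the 80 members, 17 (21.2%) had a protein-coding gene starting within 1000 bases upstream on the other strand in the table's coordinates, and 10.9% of 13466 protein-coding genes tested had one. MRPL46 and MRPS11 face away from each other with 63 bases between their starts, and their log2 fold changes were 0.038 and 0.049. MRPL36 and MRPL47 share such a region with the complex I genes NDUFS6 and NDUFB5, whose log2 fold changes were 0.063 and 0.013.

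The pair of MRPS18C and HELQ, a DNA repair helicase, was the 1 pair with a called gene. HELQ fell at a log2 fold change of -0.49 (edgeR adjusted p = 0.000177), while MRPS18C, whose start lies 77 bases away, stood at 0.0031. MRPL50 at 0.074 lies beside ZNF189 at -0.23 (adjusted p = 0.0601), and MRPL49 at -0.12 beside FAU, which encodes a cytosolic ribosomal protein, at 0.14 (adjusted p = 0.0913). Whether the genes of a pair differ was not tested.

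Pseudogenes drew few reads. The table lists 79 pseudogenes of 36 genes of the class, 57 of them without a count in any library, and together they averaged 0.271% of the members' counts. The highest was MRPL45P2, at 8.43% of the count of MRPL45, followed by MRPS31P4 at 3.59% of MRPS31. How reads shared between a gene and its pseudogene were counted is not given in the sources used here, so the levels of these parents are uncertain.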
